A study of Mus musculus with 12 samples.

Results

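The 33 genes described here were listed as genes of the meninges, the membranes that cover the brain, and of fibroblast matrix. They include transporters, matrix proteins, secreted factors and transcription factors, and which cells made each transcript in these samples was not tested. They were taken by name from the 55487 gene rows of the deposited tables, and all 33 had a row and passed the filter on low counts, which kept 16836 genes. The lowest count of a member in any library was 4, for the transcription factor gene Foxd1.

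The inner meninges, the pia and arachnoid, consist largely of fibroblasts that lay down collagen and small proteoglycans, make retinoic acid and prostaglandin D2, and carry amino acids, sulfate and organic ions between cerebrospinal fluid and brain. The pia adheres to the cortical surface and follows vessels into it, so dissected cortex can carry meningeal RNA. Several of the members are also made elsewhere in mouse brain: Ptgds by oligodendrocytes and choroid plexus, Igf2 by choroid plexus, Igfbp2 by astrocytes, Mgp by mural cells of vessels, and Ccn2 by neurons of cortical layer 6b.

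Cortex was collected 2 hr after controlled cortical impact, in which a piston strikes the exposed brain, from the struck (ipsilateral) side and the opposite (contralateral) side. Every mouse carried a CX3CR1cre-er/+ allele, which places a tamoxifen-dependent Cre recombinase under a promoter of microglia, border macrophages and monocytes, not of fibroblasts. The group called cKO also carried STING fl/fl, floxed copies of a sensor adaptor for cytosolic DNA, and the group called wt carried the Cre allele alone. The 4 groups, each of 3 RNA-seq libraries, were cKO ipsilateral, cKO contralateral, wt ipsilateral and wt contralateral cortex. The series description names the Cre of the floxed animals without its tamoxifen-dependent part, and tamoxifen is mentioned in neither source. No sham-operated or uninjured cortex was among the groups, so surgery cannot be told apart from impact, and nothing in the labels ties each library to its own animal. The p-values therefore measure the spread between these libraries.

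Library totals ran from 7.96 to 33.6 M counts, and cKO ipsilateral library 3 was the shallowest. The targeted gene, Tmem173 (STING), had 1.04, 2.44 and 1.24 CPM in cKO ipsilateral, 0.998, 1.96 and 0.762 CPM in cKO contralateral, 2.33, 3.69 and 2.72 CPM in wt ipsilateral and 2.49, 2.63 and 3.18 CPM in wt contralateral libraries. It was lower in cKO on both sides without passing the test (adjusted p = 0.816 ipsilateral and 1 contralateral). The 8 cortical neuron genes checked summed to 8005 to 10080 CPM in every library, and the fibroblast genes Col1a1, Dcn and Lum had at least 13 counts in each. Slc6a13, Slc6a20a, Myoc, Ccn2, Ogn, Islr, Igf2, Alx4, Aldh1a2 and Cped1 overlap a gene on the opposite strand. How strand was treated in counting is not given in the sources used here, so their counts may hold reads of that gene. Slc6a20a, Col1a2, Col3a1, Islr and Igf2 overlap another gene on the same strand, where reads can be shared whatever the strand setting. CPM are counts scaled to library size, and log2 differences carry their standard error. Adjusted p values come from edgeR, by its quasi-likelihood test, with the Benjamini-Hochberg method applied over all 16836 genes and a threshold of 0.05. In these bulk samples fewer cells of a type and less RNA per cell cannot be told apart.

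Stretches before the start sites are shown for 3 of the 6 members called lower on the struck side in the pooled comparison described below. These were a transporter, a collagen and a small proteoglycan, chosen because their windows hold CATTCC or CCAAT. A match in each stretch was therefore certain. Of the other members called there, Ptgds had a listed promoter with neither motif, and Ccn2 and Alx4 had no listed promoter. Each stretch shown is the 250 bases before the RefSeq start in GRCm38.p6, on the plus strand, 5′ to 3′. RefSeq starts can differ from those of the gene spans given below. The Col1a2 stretch lies within its gene span, and the Slc6a13 stretch ends inside its own. Capitals mark a minus-strand match to CATTCC, which reads GGAATG here and lies 91 bases before the start of Slc6a13 and 86 before that of Ogn, or a plus-strand match to CCAAT, 109 bases before the start of Col1a2.
Slc6a13 (chr6:121300038-121300287): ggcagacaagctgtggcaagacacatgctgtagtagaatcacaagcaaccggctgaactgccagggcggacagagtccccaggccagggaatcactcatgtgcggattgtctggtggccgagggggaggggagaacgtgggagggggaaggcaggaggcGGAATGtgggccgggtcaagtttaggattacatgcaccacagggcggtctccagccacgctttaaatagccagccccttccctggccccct
Col1a2 (chr6:4505368-4505617): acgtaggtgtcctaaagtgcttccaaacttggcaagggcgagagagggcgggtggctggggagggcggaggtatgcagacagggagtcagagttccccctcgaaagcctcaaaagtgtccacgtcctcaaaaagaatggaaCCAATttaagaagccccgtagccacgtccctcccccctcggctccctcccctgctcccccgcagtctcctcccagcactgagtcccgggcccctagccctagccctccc
Ogn (chr13:49607765-49608014): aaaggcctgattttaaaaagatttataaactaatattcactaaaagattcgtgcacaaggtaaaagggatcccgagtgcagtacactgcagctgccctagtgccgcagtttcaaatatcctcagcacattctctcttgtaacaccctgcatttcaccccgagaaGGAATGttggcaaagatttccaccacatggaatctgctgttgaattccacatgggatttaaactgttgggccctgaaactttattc
CATTCC is the core that TEAD factors, the DNA-binding partners of YAP and TAZ, recognise, and CCAAT is bound by the NF-Y complex. Searched on both strands, CATTCC was in 6 of the 25 members with a listed promoter (Slc6a13, Slc13a4, Slc22a6, Col3a1, Ogn and Itih2) and in 12.6% of all 27025 promoters. CCAAT was in 8 of the 25 (Slc13a4, Slc22a6, Myoc, Col1a2, Foxc1, Foxd1, Aldh1a2 and Serpinf1) and in 34.5% of all. Member windows came from the RefSeq start nearest the annotated start of the gene. Windows over all genes came from the first start listed for each, so the shares do not compare windows chosen alike. These matches describe letters in the window and say nothing of binding.

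Per unit of transcript length, the members covered a wide range. Ptgds, the lipocalin-type prostaglandin D synthase, averaged 2170 TPM over the 12 libraries. Mgp, an inhibitor of matrix calcification, followed at 67.3 TPM, then Igfbp2 at 47.9, Igf2 at 41.1, Ccn2 at 24.9, Nupr1 at 21.7 and Myoc at 21.1 TPM. Type I collagen transcripts were lower, at 6.42 TPM for Col1a2 and 2.73 TPM for Col1a1, and the transcription factor genes were lowest, at 1.16 TPM for Foxc1, 0.603 TPM for Alx4 and 0.19 TPM for Foxd1. Between libraries Ptgds was apart from the other members, while Mgp and Igfbp2, Igfbp2 and Igf2, Igf2 and Ccn2, Ccn2 and Nupr1, and Nupr1 and Myoc overlapped.

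Most members were lower on the struck side. In cKO mice 28 of 33 had a log2 difference (ipsilateral minus contralateral) below 0, with a median of −0.34, and in wt mice 29 of 33 with a median of −0.36. Over all genes tested the medians were −0.0063 in cKO and −0.0060 in wt mice, with 51.4% and 51.2% below 0. Few members passed the test one by one. In cKO mice 1 of 33 fell, Alx4, where 0.178% of all genes were called lower, 2.56% higher and 2.74% either way. In wt mice 3 of 33 fell, Slc6a13, Myoc and Ccn2, where 0.184% of all genes were called lower, 2.73% higher and 2.92% either way. Averaged over both genotypes, which uses all 12 libraries, 6 of 33 fell: Ccn2, Alx4, Slc6a13, Ptgds, Col1a2 and Ogn, against 2.03% of all genes called lower, 5.99% higher and 8.02% either way. No member rose in any of these comparisons.

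Ranges of the libraries were compared next. In cKO mice 8 of 33 members had all 3 ipsilateral libraries below all 3 contralateral ones, as did 11.1% of all genes: Slc6a13, Ccn2, Col1a1, Col3a1, Lum, Foxd1, Alx4 and Serpinf1. In wt mice there were 10 of 33, with 8.7% of all genes: Slc6a13, Slc13a4, Myoc, Ccn2, Col3a1, Ogn, Fmod, Alx4, Ptgds and Aldh1a2. Alx4 alone among the members had all 6 ipsilateral libraries below all 6 contralateral ones, as did 1.63% of all genes.

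These counts depended on the libraries and on the processing. With one library left out, the count of members called lower ran from 0 to 2 in cKO, 0 to 3 in wt and 2 to 12 in the pooled comparison. Under other scalings, filters and tests the count called in either direction ran from 0 to 7, 1 to 10 and 3 to 18. Shares of all genes under these alternatives were not set beside the counts. In cKO, Gjb2 was called higher with no low-count filter (adjusted p = 0.00398), where 7 members were called in all, without cKO ipsilateral library 3 (0.0436), and without that library and wt contralateral library 3 (0.0364). Ccn2 and Alx4 passed in the pooled comparison in each of the 12 fits that left out one library. Among the 11 pooled alternatives that did not omit libraries singly, Col1a2 was called in 6. Slc13a4, Myoc, Fmod and Serpinf1, which the main fit did not call, were likewise called in 6 each, and Islr in 5.

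**Figure D1:**
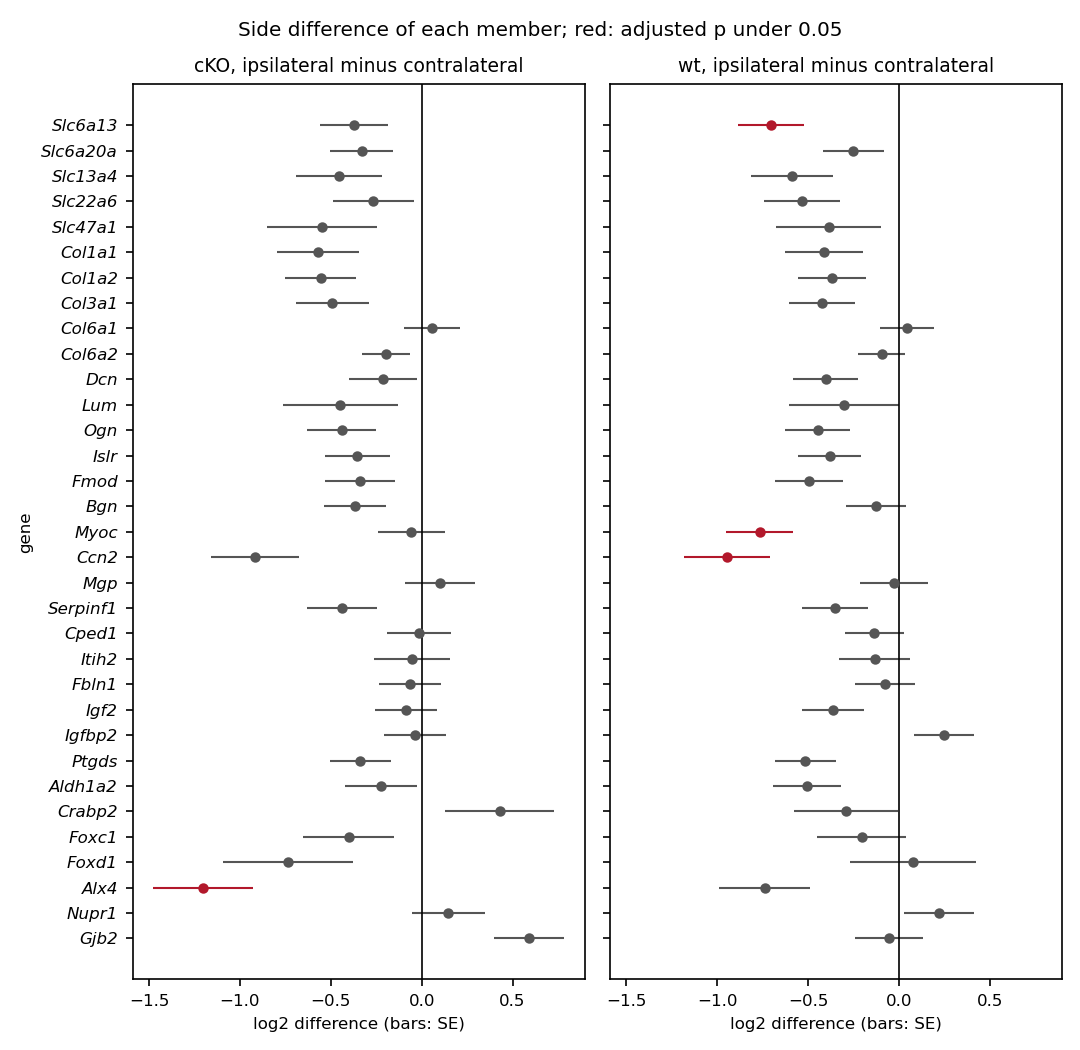
Log2 difference between ipsilateral and contralateral cortex for each of the 33 members (points) with its standard error (bars), in cKO mice on the left and wt mice on the right, ordered by role; red marks an adjusted p under 0.05. Most points lie left of 0 in both panels, with medians of −0.34 in cKO and −0.36 in wt mice.

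Of the 5 transporters, 1 fell in the pooled comparison, where 2.03% of all genes were called lower. Slc6a13, the GABA and taurine transporter GAT2 (ENSMUSG00000030108, chromosome 6 at 121300227 to 121337733, plus strand), had 7.46, 9.13 and 9.08 CPM in cKO ipsilateral libraries 1 to 3 and 9.63, 10.9 and 12.5 CPM in cKO contralateral ones, with 5.82, 8.498 and 11.2 CPM in wt ipsilateral and 14.1, 14.7 and 12.8 CPM in wt contralateral libraries. Every cKO ipsilateral library lay below every cKO contralateral one, and the same held in wt, where ipsilateral library 1 was the lowest of the 12. The difference was −0.37 ± 0.19 (adjusted p = 0.394) in cKO and −0.70 ± 0.18 (adjusted p = 0.0489) in wt mice, and −0.54 ± 0.13 (adjusted p = 0.0186) over both. The pooled call was lost without cKO ipsilateral library 1 (adjusted p = 0.0583, range 0.00298 to 0.0583 over libraries left out). The wt call was lost without any of wt ipsilateral 1 and 2, wt contralateral 1 and 2, cKO ipsilateral 1 to 3 and cKO contralateral 1 and 2 (0.0578 to 0.193), in a fit of the wt groups alone (0.122), and on the log2 TPM + 1 scale with no filter (0.158), where the pooled call was lost too (0.0743).

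Slc6a20a, a transporter of proline and other imino acids, had 14.2, 22.8 and 15.7 CPM in the cKO ipsilateral, 20.5, 23.8 and 22.6 CPM in the cKO contralateral, 15.6, 20.7 and 25.02 CPM in the wt ipsilateral and 24.2, 23.2 and 25.6 CPM in the wt contralateral libraries. Libraries 1 and 3 were low on the cKO struck side, library 1 was low on the wt struck side, and the groups overlapped; the pooled difference was −0.29 ± 0.12 (adjusted p = 0.16). The other 3 carry sulfate (Slc13a4), organic anions (Slc22a6) and organic cations (Slc47a1). Their pooled differences were −0.52 ± 0.16 (adjusted p = 0.0646), −0.40 ± 0.15 (adjusted p = 0.131) and −0.47 ± 0.21 (adjusted p = 0.196). Summed over the 5 transporters, the level was 38.9 to 59.9 CPM in cKO ipsilateral, 53.2 to 68.9 CPM in cKO contralateral, 39.1 to 65.7 CPM in wt ipsilateral and 71.1 to 75.8 CPM in wt contralateral libraries.

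Of the 5 collagens, 1 fell in the pooled comparison, where 2.03% of all genes were called lower. Col1a2, a chain of type I collagen (ENSMUSG00000029661, chromosome 6 at 4504814 to 4541544, plus strand), had 12.97, 18.1 and 15.3 CPM in cKO ipsilateral libraries 1 to 3 and 17.5, 21.8 and 29.3 CPM in cKO contralateral ones, with 15.8, 19.8 and 25.1 CPM in wt ipsilateral and 28.7, 26.3 and 23.3 CPM in wt contralateral libraries. The cKO groups overlapped by one library each, with contralateral library 1 below ipsilateral library 2, and the wt groups overlapped through ipsilateral library 3. Its difference was −0.56 ± 0.20 (adjusted p = 0.197) in cKO and −0.37 ± 0.19 (adjusted p = 0.388) in wt mice, and −0.46 ± 0.14 (adjusted p = 0.0492) over both. The pooled call was lost without any of cKO ipsilateral 1 and 3, cKO contralateral 2 and 3, wt ipsilateral 1 and 2 and wt contralateral 1 and 2 (0.0737 to 0.124), with limma-voom (0.0548), on the log2 TPM + 1 and log2 TPM + 0.1 scales (0.0683 and 0.0655), on log2 TPM + 1 with no filter (0.147), and without cKO ipsilateral 3 and wt contralateral 3 together (0.0519).

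Col1a1, its partner chain, and Col3a1, of type III collagen, had pooled differences of −0.49 ± 0.16 (adjusted p = 0.0693) and −0.46 ± 0.14 (adjusted p = 0.0513). For Col3a1 the cKO difference in CPM was −0.49 ± 0.20 (adjusted p = 0.281), but it was 0.13 on the log2 TPM + 1 scale, where cKO ipsilateral libraries held 1.17, 1.35 and 2.18 TPM and cKO contralateral libraries 1.21, 2.12 and 0.80 TPM. Col6a1 of type VI collagen had 42.4, 33.4 and 47.6 CPM in the cKO ipsilateral, 31.2, 43.6 and 42.96 CPM in the cKO contralateral, 47.04, 45.1 and 34.8 CPM in the wt ipsilateral and 40.4, 44.96 and 37.6 CPM in the wt contralateral libraries. Col6a2 of the same collagen had 17.7, 18.7 and 16.9 CPM in the cKO ipsilateral, 17.02, 19.1 and 25.5 CPM in the cKO contralateral, 20.2, 20.5 and 19.8 CPM in the wt ipsilateral and 23.3, 22.6 and 18.7 CPM in the wt contralateral libraries. Both overlapped between sides in both genotypes, with pooled differences of 0.051 ± 0.11 (adjusted p = 0.823) and −0.15 ± 0.093 (adjusted p = 0.369). The small positive value of Col6a1 was −0.058 on the log2 TPM + 1 scale.

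All 6 small leucine-rich repeat genes had pooled differences below 0, as did 51.8% of all genes. Of the 6, 1 fell, where 2.03% of all genes were called lower. Ogn, the proteoglycan osteoglycin (ENSMUSG00000021390, chromosome 13 at 49608046 to 49624501, plus strand), had 6.05, 8.49 and 4.98 CPM in cKO ipsilateral libraries 1 to 3 and 7.34, 10.5 and 9.71 CPM in cKO contralateral ones, with 7.79, 7.296 and 8.805 CPM in wt ipsilateral and 9.49, 10.3 and 12.9 CPM in wt contralateral libraries. All wt ipsilateral libraries lay below all wt contralateral ones, while in cKO ipsilateral library 2 lay above contralateral library 1. The difference was −0.44 ± 0.19 (adjusted p = 0.3) in cKO and −0.45 ± 0.18 (adjusted p = 0.249) in wt mice, and −0.44 ± 0.13 (adjusted p = 0.0492) over both. Leaving out any of cKO ipsilateral 1 and 3, cKO contralateral 2 and 3, wt ipsilateral 1 to 3 and wt contralateral 2 and 3 ended the pooled call (0.0699 to 0.122), as did limma-voom (0.0635), log2 TPM + 1 with no filter (0.0912) and leaving out cKO ipsilateral 3 and wt contralateral 3 together (0.113).

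Islr, a membrane protein of mesenchymal cells, had 16.8, 24.6 and 17.9 CPM in the cKO ipsilateral, 19.99, 24.9 and 31.8 CPM in the cKO contralateral, 18.3, 20.3 and 24.4 CPM in the wt ipsilateral and 29.8, 28.6 and 23.7 CPM in the wt contralateral libraries. Bgn, biglycan, had 15.03, 17.8 and 14.8 CPM in the cKO ipsilateral, 15.9, 22.97 and 23.3 CPM in the cKO contralateral, 16.2, 19.9 and 20.8 CPM in the wt ipsilateral and 25.7, 18.4 and 17.9 CPM in the wt contralateral libraries. The sides overlapped for both genes in both genotypes, and the pooled differences were −0.37 ± 0.12 (adjusted p = 0.0857) for Islr and −0.25 ± 0.12 (adjusted p = 0.228) for Bgn. The collagen-binding proteoglycan genes Dcn, Lum and Fmod had pooled differences of −0.31 ± 0.13 (adjusted p = 0.167), −0.37 ± 0.22 (adjusted p = 0.325) and −0.42 ± 0.14 (adjusted p = 0.0741). Fmod was lower in all wt ipsilateral than in all wt contralateral libraries, by a narrow gap of 30.9 against 31.9 CPM.

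Ccn2 had one of the widest side differences of the members. Ccn2, or connective tissue growth factor, is a matricellular protein and a standard YAP target (ENSMUSG00000019997, chromosome 10 at 24595442 to 24598683, plus strand), and it had 20.1, 20.98 and 30.5 CPM in cKO ipsilateral libraries 1 to 3 and 41.03, 59.7 and 30.7 CPM in cKO contralateral ones, with 32.6, 20 and 18.2 CPM in wt ipsilateral and 48.8, 39.9 and 47.8 CPM in wt contralateral libraries. In cKO the highest ipsilateral library, 30.5 CPM, was just below the lowest contralateral one, 30.7 CPM, and cKO contralateral library 2 stood far above the rest. In wt, ipsilateral library 1 was the highest of its group and still below all contralateral libraries. The difference was −0.92 ± 0.24 (adjusted p = 0.0637) in cKO and −0.95 ± 0.24 (adjusted p = 0.044) in wt mice, and −0.93 ± 0.17 (adjusted p = 0.00257) over both, and leaving out any one library kept the pooled adjusted p between 0.00048 and 0.0122. The wt call was lost without any of cKO ipsilateral 1 and 2, cKO contralateral 1, wt ipsilateral 2 and 3 and wt contralateral 1 to 3 (0.0562 to 0.214), with DESeq2 (0.057), on the log2 TPM + 1 and log2 TPM + 0.1 scales (0.152 and 0.146), on log2 TPM + 1 with no filter (0.291), and without cKO ipsilateral 3 and wt contralateral 3 together (0.0526). The pooled call was lost on the log2 TPM + 1 scale with no filter (0.108).

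Ccn1, the closest relative of Ccn2 and likewise a YAP target, is not a member and did the opposite. It had 65.8, 79.1 and 98.5 CPM in the cKO ipsilateral, 10.7, 20.6 and 22.9 CPM in the cKO contralateral, 71.04, 90.6 and 95.3 CPM in the wt ipsilateral and 24.7, 16.8 and 28.1 CPM in the wt contralateral libraries. Every ipsilateral library was above every contralateral one in both genotypes, and the gene rose by 2.17 ± 0.25 in cKO (adjusted p = 6.04e-05) and 1.89 ± 0.24 in wt mice (adjusted p = 0.000196), where the call was lost on the log2 TPM + 1 scale with no filter (0.0612). Among 8 measured genes of a YAP and TEAD target list, 3 rose over both genotypes (Ccn1, Axl and Amotl2) and 1 fell (Ccn2), where 5.99% of all genes were called higher. Of the 3 layer 6b neuron markers, none was called: the pooled differences were −0.085 for Cplx3, −0.23 for Nxph4 and −0.053 for Moxd1. In the same order they were −0.23, −0.25 and −0.12 in wt, and 0.062, −0.20 and 0.016 in cKO mice. Any link to the Ccn2 difference was not tested.

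Myoc, the secreted glycoprotein myocilin (ENSMUSG00000026697, chromosome 1 at 162639155 to 162649693, plus strand), had 22.2, 33.7 and 22.3 CPM in cKO ipsilateral libraries 1 to 3 and 24.3, 24.7 and 33.5 CPM in cKO contralateral ones, with 15.3, 17.8 and 23.3 CPM in wt ipsilateral and 33.7, 34.7 and 27.5 CPM in wt contralateral libraries. All wt ipsilateral libraries lay below all wt contralateral ones, and in cKO the ranges overlapped, with ipsilateral library 2 at the top. The difference was −0.058 ± 0.18 (adjusted p = 0.926) in cKO and −0.77 ± 0.18 (adjusted p = 0.0349) in wt mice, and the cKO value was 0.025 to 0.11 without cKO contralateral 3, cKO ipsilateral 1 or cKO ipsilateral 3. The wt call was lost without wt ipsilateral 1 or 2 or wt contralateral 1 or 2 (0.0958 to 0.157), and with the replicate number as a block (0.0532).

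Mgp, matrix Gla protein, had 16.1, 21.6 and 16.4 CPM in the cKO ipsilateral, 12.7, 17.8 and 20.7 CPM in the cKO contralateral, 14.6, 16.3 and 19.4 CPM in the wt ipsilateral and 21.02, 16.8 and 13.4 CPM in the wt contralateral libraries. Both genotypes overlapped between sides, and its pooled difference of 0.037 ± 0.13 (adjusted p = 0.905) was −0.13 on the log2 TPM + 1 scale. The 4 further secreted proteins are the antiangiogenic factor Serpinf1, the hyaluronan-binding heavy chain Itih2, the matrix protein fibulin 1 (Fbln1) and Cped1. Serpinf1 had a pooled difference of −0.40 ± 0.13 (adjusted p = 0.0835), and the other 3 lay between −0.094 (Itih2) and −0.070 (Fbln1).

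Neither gene of the insulin-like growth factor axis passed the test. Igf2, a growth factor of meninges and choroid plexus, had 47.9, 73.1 and 52.5 CPM in cKO ipsilateral libraries 1 to 3 and 50.8, 63.5 and 71.2 CPM in cKO contralateral ones, with 46.3, 60.4 and 73.7 CPM in wt ipsilateral and 81.8, 71.98 and 78.2 CPM in wt contralateral libraries. Igfbp2, a binding protein for it, had 23.5, 27.3 and 36.2 CPM in cKO ipsilateral libraries 1 to 3 and 24.7, 28.2 and 34.8 CPM in cKO contralateral ones, with 36.9, 39.3 and 39.8 CPM in wt ipsilateral and 40.9, 27.9 and 28.96 CPM in wt contralateral libraries. Igf2 overlapped between sides in cKO and, through ipsilateral library 3, in wt. Igfbp2 was the other way round in wt, where all ipsilateral libraries were above contralateral libraries 2 and 3 and below contralateral library 1. The pooled differences were −0.22 ± 0.12 (adjusted p = 0.288) for Igf2 and 0.10 ± 0.12 (adjusted p = 0.645) for Igfbp2.

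Of the 3 retinoid and prostaglandin genes, 1 fell. Ptgds (ENSMUSG00000015090, chromosome 2 at 25466709 to 25470046, minus strand) had 643, 806 and 608 CPM in cKO ipsilateral libraries 1 to 3 and 773, 799 and 1029 CPM in cKO contralateral ones, with 491, 734 and 835 CPM in wt ipsilateral and 1070, 1013 and 862 CPM in wt contralateral libraries. All wt ipsilateral libraries lay below all wt contralateral ones, with wt ipsilateral library 1 lowest of the 12, and in cKO ipsilateral library 2 overlapped the contralateral range. The difference was −0.34 ± 0.17 (adjusted p = 0.383) in cKO and −0.52 ± 0.17 (adjusted p = 0.135) in wt mice, and −0.43 ± 0.12 (adjusted p = 0.0381) over both. The pooled call was lost without any of cKO ipsilateral 1 and 3, cKO contralateral 3, wt ipsilateral 2 and wt contralateral 1 and 2 (0.0628 to 0.0857), with the replicate block (0.0543), and on the log2 TPM + 1 scale with no filter (0.0512). Among 8 oligodendrocyte genes, the other main source of Ptgds in cortex, 1 rose over both genotypes (Mbp) and none fell. Of all genes, 5.99% were called higher and 2.03% lower in that comparison.

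Aldh1a2, the enzyme that makes retinoic acid in meninges, had 6.74, 9.33 and 5.47 CPM in the cKO ipsilateral, 8.39, 8.82 and 8.76 CPM in the cKO contralateral, 5.695, 8.67 and 10.04 CPM in the wt ipsilateral and 10.5, 12.7 and 11.5 CPM in the wt contralateral libraries. The wt sides did not overlap, the cKO sides did, and the pooled difference was −0.36 ± 0.14 (adjusted p = 0.118). Crabp2, which carries retinoic acid to its nuclear receptor, had differences of 0.43 ± 0.30 (adjusted p = 0.552) in cKO and −0.29 ± 0.29 (adjusted p = 0.702) in wt mice.

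Among the 4 regulators Alx4 stood out. Alx4 is a homeobox transcription factor of craniofacial mesenchyme (ENSMUSG00000040310, chromosome 2 at 93642384 to 93681339, plus strand), and its level was low, at 9 to 93 counts per library. It had 1.44, 0.801 and 1.12 CPM in cKO ipsilateral libraries 1 to 3 and 2.44, 2.77 and 2.62 CPM in cKO contralateral ones, with 1.76, 1.25 and 1.93 CPM in wt ipsilateral and 2.52, 2.28 and 3.48 CPM in wt contralateral libraries. All 6 ipsilateral libraries were below all 6 contralateral ones, with cKO ipsilateral library 2 lowest. The difference was −1.20 ± 0.27 (adjusted p = 0.025) in cKO and −0.74 ± 0.25 (adjusted p = 0.159) in wt mice, and −0.97 ± 0.19 (adjusted p = 0.00379) over both (0.00281 to 0.0148 with one library left out). The cKO call was lost without cKO ipsilateral 2 or 3 or any cKO contralateral library (0.053 to 0.169). It was also lost on the log2 TPM + 1 scale with no filter (0.202), where the differences were −0.43 in cKO and −0.39 over both. With the TPM filter Alx4 was not tested, since its mean of 0.603 TPM was below 1.

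Foxc1, a forkhead factor needed for meningeal development, had 3.68, 5.09 and 1.74 CPM in the cKO ipsilateral, 4.403, 6.18 and 4.38 CPM in the cKO contralateral, 4.302, 3.73 and 4.57 CPM in the wt ipsilateral and 5.38, 4.08 and 5.09 CPM in the wt contralateral libraries. Library 3 of cKO ipsilateral cortex was far below the others, and the sides overlapped in both genotypes; the pooled difference was −0.30 ± 0.18 (adjusted p = 0.32). Nupr1, a small stress-induced chromatin protein, had 8.25, 7.37 and 9.703 CPM in the cKO ipsilateral, 7.57, 6.18 and 8.71 CPM in the cKO contralateral, 8.15, 9.399 and 8.56 CPM in the wt ipsilateral and 10.01, 7.08 and 5.28 CPM in the wt contralateral libraries. It overlapped between sides in both genotypes and had a pooled difference of 0.18 ± 0.14 (adjusted p = 0.466). Foxd1, another forkhead factor, had 4 to 31 counts per library and a pooled difference of −0.33 ± 0.25 (adjusted p = 0.466).

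Gjb2, the gap junction protein connexin 26 of the leptomeninges, had 11.5, 11.4 and 6.97 CPM in cKO ipsilateral libraries 1 to 3 and 6.31, 5.54 and 8.76 CPM in cKO contralateral ones, with 7.95, 8.97 and 10.9 CPM in wt ipsilateral and 8.73, 9.74 and 10.5 CPM in wt contralateral libraries. In cKO, ipsilateral libraries 1 and 2 were above all contralateral ones and library 3 was not, while the wt sides overlapped. The difference was 0.59 ± 0.19 (adjusted p = 0.16) in cKO, the highest of any member there, and −0.055 ± 0.19 (adjusted p = 0.929) in wt mice.

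**Figure D2:**
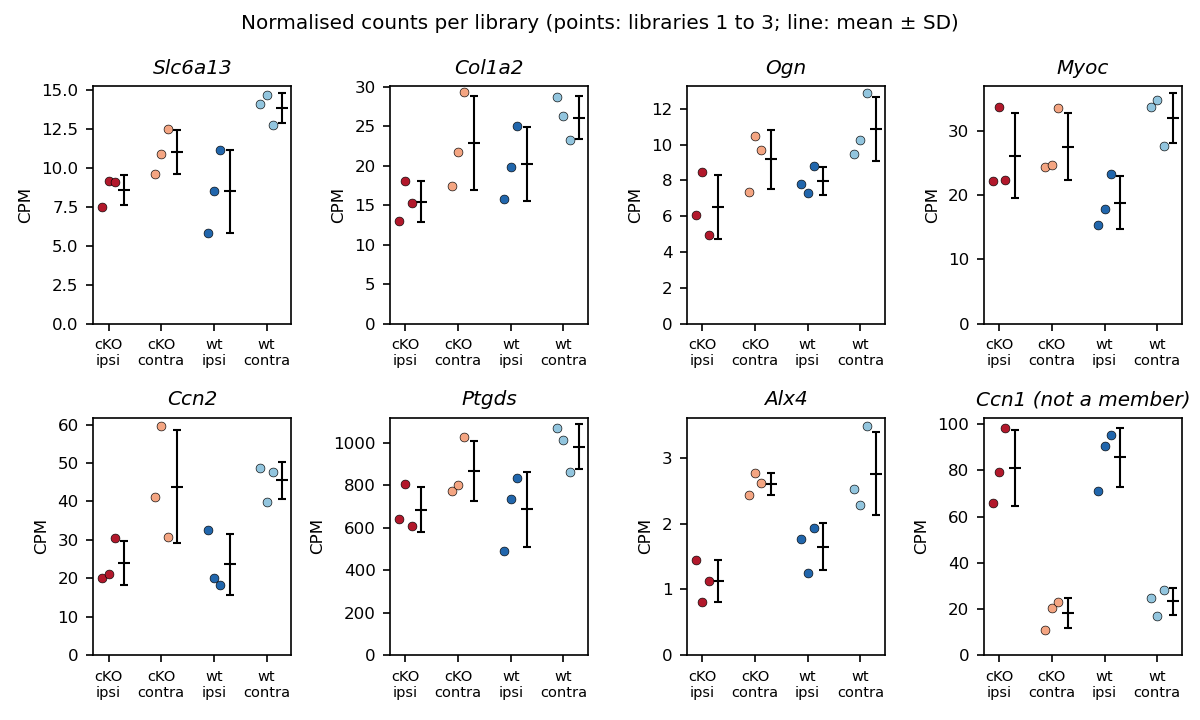
CPM in each library for the 7 members called in any comparison and for Ccn1, which is not a member; points are libraries 1 to 3 of each group and the bar beside them is mean ± SD, with ipsilateral (ipsi) left of contralateral (contra) cortex. Alx4 separates the sides in both genotypes, and Ccn1 is far higher on the ipsilateral side while Ccn2 is lower.

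Libraries of a group differed in the members' common level. The median member, as log2 CPM minus its own mean over the 12 libraries, was at −0.38, 0.079 and −0.33 in cKO ipsilateral libraries 1 to 3 and −0.19, 0.10 and 0.19 in cKO contralateral ones. It was at −0.35, −0.061 and 0.15 in wt ipsilateral and 0.37, 0.26 and 0.20 in wt contralateral libraries. By this measure cKO ipsilateral library 2 and wt ipsilateral library 3 were above the average of their genes, cKO contralateral library 1 was below it, and the wt contralateral libraries were uniformly high. The number of members above their own mean was 5, 19 and 3 of 33 in cKO ipsilateral libraries and 6, 24 and 32 in cKO contralateral ones, with 8, 14 and 29 in wt ipsilateral and 32, 25 and 22 in wt contralateral libraries.

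**Figure D3:**
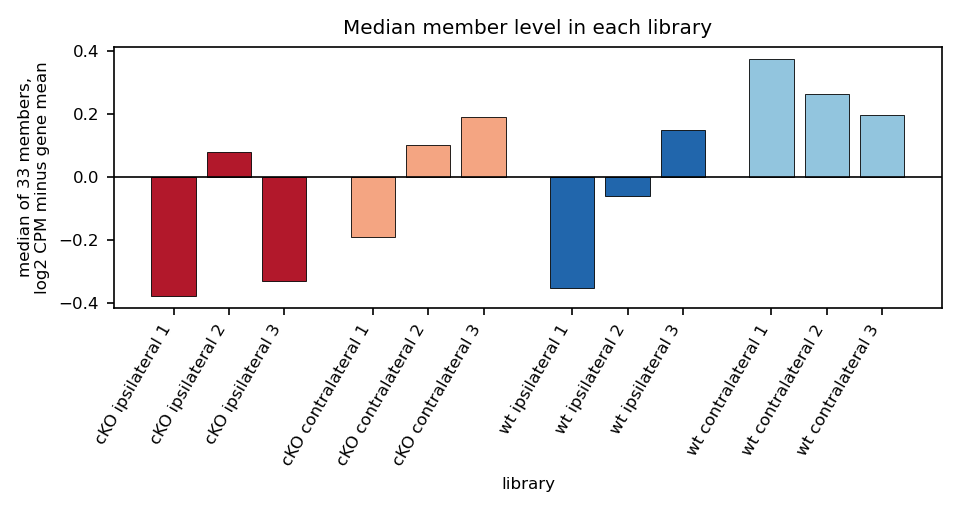
Median over the 33 members of log2 CPM minus each gene's mean over 12 libraries, one bar per library, with ipsilateral left of contralateral libraries in each genotype. The 3 wt contralateral bars are all positive, at 0.20 to 0.37, while each of the other groups holds both positive and negative bars.

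**Figure D4:**
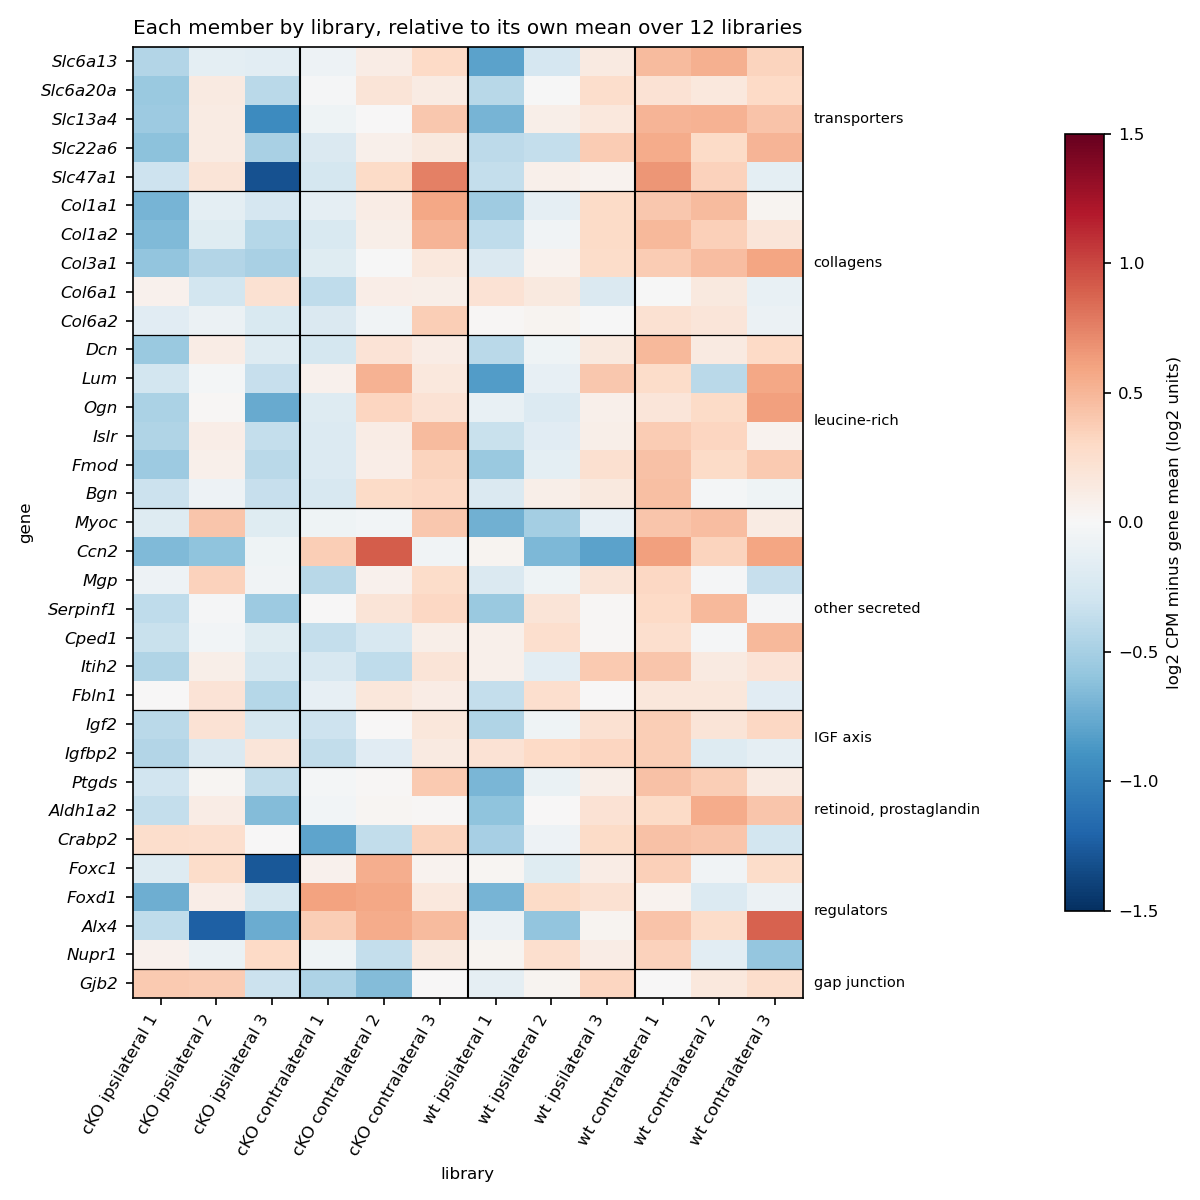
Log2 CPM of each member (rows, grouped by role) minus its own mean over the 12 libraries (columns), with ipsilateral left of contralateral libraries in each genotype; blue is below and red above the mean. Columns tend to be of 1 colour for transporters, fibrillar collagens and proteoglycans, and Ccn2, Alx4 and Col6a1 depart from their column.

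With group means removed, most members varied together from library to library. The median Pearson r between pairs of members was 0.476 over the 12 libraries, and 81.4% of pairs were above 0. The values describe the members in these libraries, which differed in depth. No value over all genes was set beside them, and nothing was tested. The members closest to the rest were Islr (median r 0.726 with the other members), Ptgds (0.715), Myoc (0.709) and Col1a2 (0.704). The 3 with a negative median r were Ccn2 (−0.448), Alx4 (−0.263) and Col6a1 (−0.205), and Nupr1 was at 0.0826. The 2 genes with the widest side differences, Ccn2 and Alx4, were the ones that followed the other members least between libraries of a group.

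Over all genes kept, the gene most like Col1a2 was its partner Col1a1 (r = 0.962), and the member Islr was at 0.951, with Dact3, Ccnd3 and Wtip also among the 5 nearest. Ogn was nearest to Zic5 (0.959), a zinc finger gene of the meninges, with the matrix protein gene Thbs2 among its 5 nearest (0.928). Slc6a13 was nearest to Gm10297 (0.961) and to the zinc finger gene Snai1 (0.948). Ptgds was nearest to Cdc42ep5 (0.961), Ccn2 to Dnajc18 (0.936) and Alx4 to Ddx19b (0.931). None of the 5 nearest genes of Slc6a13, Ccn2, Ogn, Alx4 or Ptgds was a member. These correlations are the highest among all 16836 genes kept, over 12 libraries. High values can arise from so many comparisons, and none was tested.

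**Figure D5:**
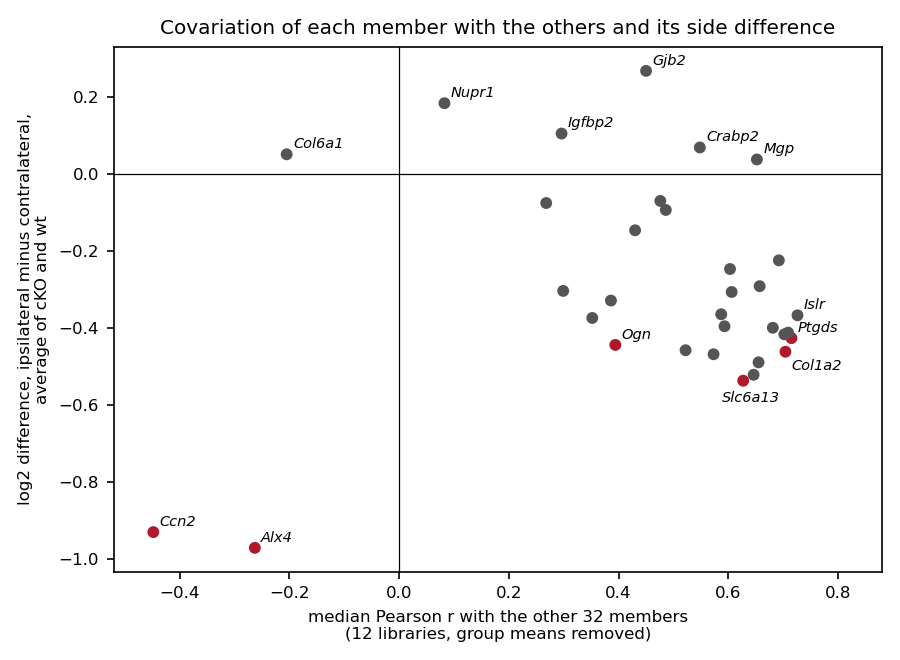
Each point is a member: the x axis is its median Pearson r with the other 32 members over 12 libraries after group means were removed, and the y axis is its log2 difference between ipsilateral and contralateral cortex averaged over both genotypes; red marks an adjusted p under 0.05. Ccn2 and Alx4 lie at the lower left, with r of −0.448 and −0.263, apart from Col1a2, Ptgds, Slc6a13 and Ogn.

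Between genotypes no member was called. In ipsilateral cortex 28 of 33 members were lower in cKO than in wt by log2 CPM, with a median of −0.16 against 0.0014 over all genes; on the log2 TPM + 1 scale, where all genes shifted by 0.16, the members' median was 0.039. edgeR called 0 of 33 members and 0% of all genes, and 3 members had an unadjusted p under 0.05. DESeq2 and limma also called none, and edgeR without the low-count filter called 2, Myoc and Igfbp2. The 3 were Col3a1 at −0.56 ± 0.20 (adjusted p = 0.754), Igfbp2 at −0.44 ± 0.17 (adjusted p = 0.754) and Myoc at 0.49 ± 0.19 (adjusted p = 0.754). The Col3a1 value was 0.22 on the log2 TPM + 1 scale. In 4 of 33 members all cKO libraries lay below all wt ones (Col3a1, Col6a2, Igfbp2 and Cped1), as did 5.99% of all genes.

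In contralateral cortex 29 of 33 members were lower in cKO than in wt, with a median of −0.16 against −0.00093 over all genes. edgeR called 0 of 33 members and 0% of all genes, DESeq2 and limma called none, and 5 members had an unadjusted p under 0.05: Col3a1, Gjb2, Cped1, Aldh1a2 and Slc22a6. Their differences were −0.49 ± 0.18 (adjusted p = 1), −0.50 ± 0.19, −0.42 ± 0.17, −0.42 ± 0.19 and −0.45 ± 0.21. In 6 of 33 members all cKO libraries lay below all wt ones (Slc6a13, Slc13a4, Slc22a6, Col3a1, Igf2 and Aldh1a2), as did 3.6% of all genes, and in 1, Foxd1, all lay above, as did 3.4% of all genes.

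The difference between the side effects, cKO minus wt, had a median of 0.013 over the members and −0.00067 over all genes. edgeR called 0 of 33 members and 0% of all genes, with 2 members at an unadjusted p under 0.05. DESeq2 and limma called none, and edgeR with no filter called Myoc. Those 2 were Myoc at 0.71 ± 0.26 (adjusted p = 1) and Gjb2 at 0.64 ± 0.27 (adjusted p = 1). The 1 member called in cKO and the 3 called in wt mice are therefore not shown to differ between genotypes: the difference was −0.47 ± 0.37 for Alx4, 0.33 ± 0.26 for Slc6a13 and 0.030 ± 0.34 for Ccn2.

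A further list of 48 meningeal and fibroblast genes was read beside the members, and 46 passed the filter. None was called in cKO or in wt mice. Over both genotypes 3 fell (Zic4, Slc22a2 and Col6a3, where 2.03% of all genes were called lower) and 1 rose (Rdh10, where 5.99% were called higher). The list's median was −0.075 in cKO and −0.12 in wt mice, nearer to 0 than that of the members. Zic4, a zinc finger factor of the meninges, had 0.973, 1.28 and 0.498 CPM in the cKO ipsilateral, 1.41, 1.24 and 1.62 CPM in the cKO contralateral, 0.697, 0.772 and 1.11 CPM in the wt ipsilateral and 2.04, 1.73 and 1.72 CPM in the wt contralateral libraries, a pooled difference of −0.80 ± 0.21 (adjusted p = 0.027). Wt ipsilateral libraries were all below wt contralateral ones, and in cKO ipsilateral library 2 overlapped.

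Slc22a2, an organic cation transporter, differed by −1.07 ± 0.31 (adjusted p = 0.0464) and Col6a3, another chain of type VI collagen, by −0.47 ± 0.14 (adjusted p = 0.0493). Leaving out any one library ended the call of either gene (0.0508 to 0.124). Zic4 lost its call without cKO ipsilateral 1, cKO contralateral 1 or 3, wt ipsilateral 1 or 2 or wt contralateral 1 or 2 (0.0525 to 0.0744), with the replicate block (0.0552), and on the log2 TPM + 1 scale with no filter (0.621). Rdh10, an enzyme that makes retinaldehyde, had 9.73, 10.8 and 8.21 CPM in the cKO ipsilateral, 7.49, 6.69 and 5.43 CPM in the cKO contralateral, 9.79, 8.58 and 9.26 CPM in the wt ipsilateral and 6.83, 6.98 and 8.46 CPM in the wt contralateral libraries. All ipsilateral libraries were above all contralateral ones of the same genotype, and the pooled difference was 0.44 ± 0.10 (adjusted p = 0.0135). That call was lost on the log2 TPM + 1 scale with or without the filter (0.264 and 0.389).

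Genes of other components of the tissue were summed in the same libraries, and their part in the members' differences was not tested. Over both genotypes 5.99% of all genes were called higher and 2.03% lower, beside which the counts below are to be read. The 14 endothelial genes summed to 376 to 406 CPM in cKO ipsilateral, 324 to 353 CPM in cKO contralateral, 378 to 480 CPM in wt ipsilateral and 350 to 391 CPM in wt contralateral libraries, and 4 rose over both genotypes (Flt1, Cdh5, Emcn and Pecam1). The 13 mural cell genes summed to 272 to 303, 255 to 305, 268 to 365 and 295 to 334 CPM in those groups, and none was called. The 8 astrocyte genes included 5 that rose, Sox9 the most at 0.82 ± 0.10 (adjusted p = 5.43e-05).

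Blood transcripts moved strongly with side. The 5 erythroid genes summed to 602 to 933 CPM in cKO ipsilateral and 4.76 to 81.6 CPM in cKO contralateral libraries, and to 597 to 2104 CPM in wt ipsilateral and 2.10 to 242 CPM in wt contralateral libraries, and all 5 rose over both genotypes. Of 8 measured border macrophage genes 1 rose (Pf4, also a platelet gene) and none fell, where 5.99% of all genes were called higher. Choroid plexus genes, which include other sources of Ptgds and Igf2, summed to 3.48 to 11.6 CPM in all libraries but wt ipsilateral library 2, at 46.4 CPM, and none of the 7 measured was called. Of 8 cortical neuron genes Snap25 fell by 0.17 ± 0.045 on the log2 scale (adjusted p = 0.028), where 2.03% of all genes were called lower. No striatal or ependymal gene was called. With one library left out, the calls of Pecam1, Cdh5, Amotl2 and Snap25 were lost in 6, 1, 7 and 6 of 12 fits, with adjusted p up to 0.0775, 0.0542, 0.1 and 0.0785. Those of the astrocyte genes Aldoc, Gja1 and Slc1a2 were lost in 7, 7 and 10 of the 12, with adjusted p up to 0.0838, 0.103 and 0.103. On the log2 TPM + 1 scale the calls of Flt1, Cdh5, Emcn, Pecam1, Axl, Amotl2, Mbp, Aldoc, Gja1, Slc1a2 and Snap25 were lost, with adjusted p of 0.104 for Snap25 to 0.91 for Axl. The astrocyte gene Slc1a3 was called in 8 of the 11 pooled alternatives that did not omit libraries singly, with adjusted p up to 0.506. Sox9 was called in all 11.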

How the data were processed

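RNA was made into libraries with a stranded mRNA kit, per the labels' protocols. Per the submitters' processing notes, Trim Galore 0.6.4 trimmed the reads, STAR 2.7.1a placed them on mm10 and RSEM 1.2.28 counted them; the annotation and strand setting are not given in the sources used here. The authors deposited estimated counts as whole numbers and TPM values per gene for the 12 libraries.

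Gene identifiers were matched to GENCODE M21 (55227 of 55487). Counts were fitted in R 4.3.3 with edgeR 4.0.16: filterByExpr (minimum count 10, minimum total 15), scaling by trimmed mean of M values, and 1 quasi-likelihood model over the 4 groups, with Benjamini-Hochberg adjustment and a threshold of 0.05. CPM used the scaled library sizes, log2 CPM a prior count of 2. The code was tested on simulated counts.

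The members and the gene lists were chosen with earlier results of these data known, so counts over them describe and do not test. Every library's value is given for members called in any comparison and for the 2 members with the highest mean TPM in each role group; other lists give their called members. Ccn1 was named after its values were seen.

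Alternatives were DESeq2 size factors, library totals, no or a stricter low-count filter (at least 1 CPM in 3 or more libraries, with 100 counts in all), DESeq2 1.42.0, limma-voom, limma 3.58.1 on log2 TPM + 1 or + 0.1, omission of each library, a block on replicate number, and fits restricted to the groups compared. The fits on log2 TPM kept genes with a mean of at least 1 TPM, except where no filter is stated. Over 11538 genes of at least 5 CPM, with group means removed, same-numbered libraries from the 2 sides of cKO cortex had correlations of 0.222, 0.306 and 0.23, each over 0.1, which the rule used here takes as pairs; the values reported come from the model without a block, and the blocked fit is an alternative. The wt libraries gave −0.255, 0.396 and 0.0183. The labels do not say what a number stands for.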

Additional observations from a re-analysis of the deposited data

How the results depend on the processing

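Medians over the members kept their direction under every alternative in the side comparisons (cKO, wt and pooled), while the number of members called moved. With library totals 13 were called in the pooled comparison, and with DESeq2 12. With no low-count filter 7 were called in cKO, 10 in wt and 18 in the pooled comparison, 2 between genotypes in ipsilateral cortex and 1 for the difference of side effects. In that unfiltered edgeR fit the adjusted p of Ccn2 in cKO was 6.59e-15, against 0.0637 with the filter. Shares of all genes called under the alternatives are not given here, so these counts are not read as particular to the members. On log2 TPM + 1, and likewise + 0.1, only genes with a mean of at least 1 TPM were tested, which left out Alx4 and Foxd1. Among the members tested there, 0 were called in cKO and 11 in the pooled comparison. On log2 TPM + 1 with no filter 0 were called in cKO, 1 in wt and 3 in the pooled comparison. Without cKO ipsilateral library 3 and wt contralateral library 3, an alternative chosen after seeing the data, 3 were called in cKO and 5 in the pooled comparison. With one library left out the number called ran from 0 to 2 in cKO, 0 to 3 in wt and 2 to 12 in the pooled comparison. The cause of these moves was not tested. On log2 TPM + 1 the median of all genes shifted to −0.18 in wt, −0.11 in the pooled comparison and 0.16 between genotypes in ipsilateral cortex.

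With the replicate number as a block, 1 member was called in cKO, 2 in wt and 6 in the pooled comparison. In this blocked fit Myoc in wt (adjusted p = 0.0532) and Ptgds in the pooled comparison (0.0543) lost their calls, Fmod in the pooled comparison gained one (0.0384), and no other member's call changed.

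No value that turned its direction was called. With library totals Col6a1 was −0.0074 in wt and Mgp −0.0020 pooled. For Cped1 in cKO limma-voom gave 0.0059 and the replicate block 0.0073. On log2 TPM + 1, with or without the filter, Col3a1 was 0.13, Mgp −0.029 and Cped1 0.073 in cKO, Col6a1 −0.15 in wt, Col6a1 −0.058, Igfbp2 −0.026, Mgp −0.13 and Crabp2 −0.070 pooled, and Col3a1 0.22 between genotypes in ipsilateral cortex; Foxd1 in wt was −0.025 with no filter. On log2 TPM + 0.1 these were 0.23, −0.029 and 0.12 in cKO, −0.16 in wt, −0.062, −0.027, −0.13 and −0.075 pooled, and 0.33. Without the 2 libraries named above Col6a1 was −0.044, Fbln1 0.054 and Myoc 0.026 in cKO, Col6a1 −0.014 and Gjb2 0.0072 in wt, Col6a1 −0.029, Igfbp2 −0.014 and Mgp −0.0097 pooled, and the difference of side effects of Ccn2 −0.18.

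With one library left out, values in cKO ran from −0.088 to 0.20 for Col6a1, −0.12 to 0.12 for Cped1, −0.20 to 0.053 for Fbln1, −0.30 to 0.042 for Igf2, −0.20 to 0.10 for Igfbp2, −0.25 to 0.12 for Itih2, −0.081 to 0.26 for Mgp and −0.30 to 0.11 for Myoc. In wt they ran from −0.22 to 0.062 for Bgn, −0.033 to 0.17 for Col6a1, −0.23 to 0.075 for Fbln1, −0.087 to 0.34 for Foxd1, −0.18 to 0.051 for Gjb2 and −0.17 to 0.15 for Mgp. Pooled values ran from −0.022 to 0.12 for Col6a1, −0.055 to 0.24 for Crabp2, −0.14 to 0.0078 for Fbln1 and −0.054 to 0.13 for Mgp, and the difference of side effects of Ccn2 from −0.17 to 0.34. Depth was lowest for Foxd1, at 4 to 31 counts per library.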
